A study of Mus musculus with 3 samples.

Results

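A set of 10 genes that carry fatty acids from the blood into the vessel wall of the heart were followed in ribosome-associated RNA of cardiac endothelial cells. The members, chosen by their role in lipolysis at the capillary wall and in fatty acid transport and matched by gene symbol, were Lpl, Gpihbp1, Angptl4, Cd36, Slc27a1, Slc27a3, Slc27a4, Fabp4, Fabp5 and Pparg. Each of them was found among the 17583 genes of the table. The RNA came from hearts of 3 EC-RiboTag mice (Cdh5-CreERT2;Rpl22tm1.1Psam), which form a single group. The labels count them as 3 biological replicates, taken here as mice 1, 2 and 3, without saying which animal gave which library. In these mice Cre recombinase under the endothelial Cdh5 promoter becomes active with tamoxifen, and it switches the ribosomal protein gene Rpl22 to a version with a hemagglutinin tag. Only ribosomes of recombined cells carry the tag, and RNA bound to them was immunoprecipitated before sequencing (72 bases, single-end). The sample labels place the hearts at day 7 after coronary ligation, whereas the RiboTag methods mention no infarction, and the Rz of the titles is not explained for these libraries. In another experiment of the study, endothelial ribosome-associated RNA was taken from the remote zone (RZ) of EC-RiboTag hearts, 7 days after infarction, for qRT-PCR. The mouse line, the day and the abbreviation are the same as in the labels here. The legend of the sequencing experiment names neither infarction nor zone. By their labels the values are those of hearts at day 7 after ligation. Whether remote tissue or whole hearts were used was not stated for these libraries. Age and sex were not in the labels. No input library and no control library was analysed here. Every value is therefore a level inside the tagged-ribosome fraction, and no difference between conditions could be tested.

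Triglycerides travel in the blood inside lipoproteins and must be cut before their fatty acids can leave the capillary. Lipoprotein lipase, which in the heart is made mainly by cardiomyocytes, is carried across the capillary wall by GPIHBP1 of the endothelial cell and works on the luminal side, where ANGPTL4 can inactivate it. Released fatty acids enter the endothelial cell with the help of CD36 and the fatty acid transport proteins, are bound in the cytosol by fatty acid binding proteins such as FABP4 and FABP5, and pass on to the muscle cell. PPAR gamma, a nuclear receptor that binds fatty acids, is known to control several of these genes.

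Members of the binding protein and transport protein families resemble each other, and reads that fit several places were removed before counting. To show how well a read can tell the members apart, the pair of read-length windows of 72 bases with the fewest differences was searched in the coding sequences of GRCm39. Between Fabp4 and Fabp5 the closest windows differed at 20 bases, shown in capitals. The Fabp4 window covers bases 48 to 119 of the coding sequence, in exon 1 (chr3:10273499-10273524, minus strand) and exon 2 (chr3:10271137-10271182). The Fabp5 window covers bases 54 to 125, in exon 1 (chr3:10077753-10077778, plus strand) and exon 2 (chr3:10080031-10080076).
Fabp4: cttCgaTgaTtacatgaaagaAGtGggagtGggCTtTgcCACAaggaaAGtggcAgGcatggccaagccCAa
Fabp5: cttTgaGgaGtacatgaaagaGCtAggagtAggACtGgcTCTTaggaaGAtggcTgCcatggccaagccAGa
Over the whole coding sequence 66.1% of 384 aligned bases were identical, and the longest stretch shared by the transcripts was 12 bases.

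Slc27a1 and Slc27a4, the most alike of the 3 transport protein genes, came closer, with 11 differences in 72 bases (capitals). The Slc27a1 window covers bases 729 to 800 of its coding sequence, in exon 5 (chr8:72032793-72032858, plus strand) and exon 6 (chr8:72033254-72033259). The Slc27a4 window covers bases 720 to 791, in exon 5 (chr2:29699678-29699743, plus strand) and exon 6 (chr2:29699848-29699853).
Slc27a1: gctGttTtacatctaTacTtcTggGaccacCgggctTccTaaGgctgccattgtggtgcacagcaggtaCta
Slc27a4: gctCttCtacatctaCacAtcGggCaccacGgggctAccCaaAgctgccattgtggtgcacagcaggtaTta
Their longest shared stretch was 26 bases, so a full-length read of one gene does not match the other exactly. A different possible source of lost reads lay outside the families. Of the 922 windows of the Fabp5 canonical transcript, 280 (30.4%) had an exact copy at one or more of 4 other places of the genome, and of the 752 windows of the heart-type gene Fabp3, 358 (47.6%) had a copy in the processed pseudogene Fabp3-ps1. The share was 0 for Fabp4, Cd36, Gpihbp1, Angptl4, Pparg and Slc27a3, 0.511% for Slc27a4, 1.40% for Slc27a1 and 4.48% for Lpl. Normalized counts of Fabp5 and Fabp3 therefore miss any reads of these stretches that were aligned to several places. How many reads were lost in this way was not tested.

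The libraries were close in depth. The deposited values, read counts divided by a size factor and rounded, summed to 7149102, 7158585 and 7268785, and the spacing of low values implied about 7319000, 6755000 and 7567000 reads in mice 1, 2 and 3. Libraries differed in sex-linked genes, with 4, 618 and 869 normalized counts of Xist and 1080, 3 and 1 of Ddx3y. Mouse 1 thus had the pattern of a male and mice 2 and 3 that of females. The part of sex in the differences between mice was not tested. They also differed by transcript length. In mouse 3 the median log2 ratio to the mean of the other mice was -0.13 among genes in the shortest eighth of canonical lengths and 0.14 in the longest eighth, against 0.07 and -0.11 in mouse 1 and 0.05 and -0.05 in mouse 2. Endothelial markers had a median of 0.690 normalized counts per base of canonical transcript, and all 12 were listed.

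Of the 10 members, 9 had a mean of at least 200 normalized counts, a level that 53.2% of all listed genes reached. Slc27a3 was below it with 182.3. Their median was 759, against 237 over all genes. Levels spanned a 14.8-fold range from Slc27a3 to Cd36, with 2 members, Cd36 and Lpl, among the 100 highest genes of the table.

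**Figure D1:**
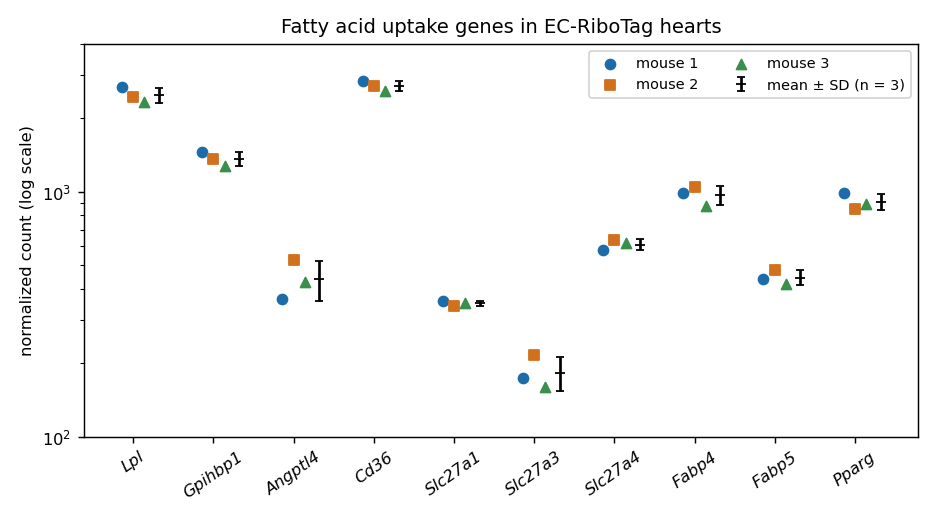
Normalized counts of the 10 fatty acid uptake genes (y axis, log scale) in mice 1, 2 and 3, with the mean ± SD (n = 3) beside the points. Cd36 and Lpl lie at or above 2309 in each mouse, Slc27a3 lies between 159 and 215, and the points of Angptl4 are the most widely spaced.

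Lipolysis at the capillary wall was represented by an enzyme, its carrier and its inhibitor. Gpihbp1, which encodes the endothelial protein that binds lipoprotein lipase and moves it to the lumen (ENSMUSG00000022579, chromosome 15, 75468477 to 75471330, plus strand), was read at 1447, 1353 and 1276 normalized counts in mice 1, 2 and 3. Its mean was 1359 ± 85.6 (SD, n = 3), at rank 958. Lpl, the lipase itself (ENSMUSG00000015568, chromosome 8, 69333143 to 69360100, plus strand), had 2665, 2437 and 2309 and ranked 91 with 2470.3 ± 180.3 (SD, n = 3). Both genes were highest in mouse 1 and lowest in mouse 3. After centring on genes of like transcript length, which was chosen once the data had been seen, Lpl kept this order, whereas Gpihbp1 was lowest in mouse 2, with log2 deviations of 0.04, -0.04 and -0.0027.

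Per base of canonical transcript the order of this pair was the opposite of that by count, because the canonical transcript of Gpihbp1 has 830 bases and that of Lpl 4115. Gpihbp1 had 1.64 ± 0.10 (SD, n = 3) normalized counts per base and Lpl 0.600 ± 0.044. Their log2 ratio was 1.43, 1.46 and 1.45 in mice 1, 2 and 3, with a mean of 1.45 ± 0.02 (SD), a 2.73-fold difference in level per base in the same direction in each of the 3 mice (exact two-sided sign-flip test, p = 0.25; 0.32 after Benjamini-Hochberg adjustment over the 9 gene pairs tested). With 3 mice this test cannot give a p below 0.25, so no pair could reach 0.05.

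Gpihbp1 had the highest level per base of the members and ranked 4 of the 17475 genes with a length. Duplicate reads had been removed, which leaves at most about 1 read for each start position of a transcript. Gpihbp1 was the only member above 1 per canonical base. Of the 9356 genes that reached a mean of 200 and had a length, 0.150% were above it. The annotation also holds longer Gpihbp1 transcripts, up to 2088 bases, and per base of the longest the level was 0.651, against 0.573 for Lpl, a log2 ratio of 0.18. Which transcript the reads came from was not tested. The ratio to Lpl and its spread between mice thus rest on a value of Gpihbp1 above 1 per start position of the canonical transcript. The size of the difference per base therefore depends on the transcript assumed, while its direction was the same under each of the lengths used.

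Angptl4, a secreted inhibitor of lipoprotein lipase that fasting, PPAR activation and hypoxia are known to induce (ENSMUSG00000002289, chromosome 17, 33992724 to 34000804, minus strand), was the most variable member. It had 366, 527 and 426 normalized counts, a mean of 439.7 ± 81.4 (SD, n = 3). The coefficient of variation (CV, the SD as a percent of the mean) was 18.5%, against the 4.78% that counting at its depth of about 438.5 reads would give, and 90.4% of genes that averaged 200 or more had a lower CV. Mouse 2 was the high library and mouse 1 the low one. Per base, Angptl4 was below Lpl by a log2 ratio of -2.55, -1.89 and -2.12 in mice 1, 2 and 3 (mean -2.19 ± 0.33, SD; exact two-sided sign-flip test, p = 0.25; adjusted p = 0.32). The mean ratio was -1.06 by all annotated exons and -2.70 after correction for start positions already taken.

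Cd36, a membrane receptor for long-chain fatty acids (ENSMUSG00000002944, chromosome 5, 17986688 to 18093799, minus strand), was the highest member by count, at rank 65. It had 2832, 2691 and 2565 normalized counts in mice 1, 2 and 3, a mean of 2696 ± 133.6 (SD, n = 3), and the 3 mice lay close together, with a CV of 4.95%. Per base of canonical transcript Cd36 had 0.769 ± 0.038 and ranked 75, against rank 1236 by all annotated exons. Removal of duplicates lowers high levels and can narrow the spread between mice at such levels. A correction for start positions already taken raised the reads per base of Cd36 1.94-fold to 1.49, those of Fabp4 1.76-fold to 1.26 and those of Lpl 1.54-fold to 0.928. The 3 genes whose level per base was nearest to Cd36 in every mouse were Cd300lg, which marks capillary endothelium, with 0.775, Bcam, a laminin receptor, with 0.777, and Tcf15, a transcription factor, with 0.775. Their largest log2 differences from Cd36 in any mouse were 0.02, 0.04 and 0.05, a likeness over 3 libraries that is a description only. Cav1, Cavin1 and Fyn, the highest of the 7 genes listed for the trafficking of CD36 to and from the membrane, had 0.838, 0.788 and 0.409 per base, and all 7 had a mean of at least 200 (Zdhhc4, Zdhhc5, Lypla1 and Lyn besides).

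The fatty acid transport proteins, enzymes that couple fatty acids to coenzyme A and so promote their uptake, were the lowest members per base of canonical transcript. Within the extent of the deposited table Slc27a4 had 0.150, above Angptl4 with 0.133. Slc27a4, the gene of FATP4 (ENSMUSG00000059316, chromosome 2, 29692646 to 29707534, plus strand), had 575, 633 and 616 normalized counts, a mean of 608 ± 29.8 (SD, n = 3). Slc27a1, the gene of FATP1 (ENSMUSG00000031808, chromosome 8, 72021526 to 72039946, plus strand), had 358, 343 and 350, a mean of 350.3 ± 7.5 (SD, n = 3). Its CV of 2.14% was the smallest of the members and was below the 5.33% of counting. Slc27a3, the gene of FATP3 (ENSMUSG00000027932, chromosome 3, 90292546 to 90297245, minus strand), had 173, 215 and 159 (182.3 ± 29.1, SD, n = 3), with mouse 2 as the high library. Slc27a2, Slc27a5 and Slc27a6 were not listed in the table, which holds no gene with all 3 values under 4.

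Per base of canonical transcript Slc27a4 was the highest of this family with 0.0931, Slc27a1 had 0.0653 and Slc27a3 had 0.0567. The log2 ratio of Slc27a1 to Slc27a4 was -0.51 ± 0.10 (SD, n = 3) and that of Slc27a3 to Slc27a4 was -0.73 ± 0.20, each negative in all 3 mice (exact two-sided sign-flip tests, p = 0.25; adjusted p = 0.32). The first was -1.32 by all annotated exons and the second -1.80 by coding sequence. Slc27a1 and Slc27a3 did not differ beyond the spread between mice. Their log2 ratio of 0.21 ± 0.25 was positive in 2 mice and negative in mouse 2 (exact two-sided sign-flip test, p = 0.5; adjusted p = 0.5), and it turned to -0.47 when all annotated exons were used as length.

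Fabp4, the fatty acid binding protein of capillary endothelium and adipocytes (ENSMUSG00000062515, chromosome 3, 10269148 to 10273636, minus strand), had 989, 1048 and 875 normalized counts in the mice taken in order. The mean was 971 ± 87.9 (SD, n = 3), at rank 2163 by count. Per base its rank was 118 by canonical transcript, 1482 by all annotated exons and 2218 by the longest transcript. Fabp5, a second binding protein expressed in endothelium (ENSMUSG00000027533, chromosome 3, 10077608 to 10081667, plus strand), had 441, 479 and 418 (446 ± 30.8, SD, n = 3). Both binding protein genes were highest in mouse 2 and lowest in mouse 3. After centring on genes of like transcript length this held for Fabp4. Fabp5 was then lowest in mouse 1, with log2 deviations of -0.06, 0.07 and -0.0053 in mice 1, 2 and 3.

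Per base, Fabp4 had 0.714 ± 0.065 and Fabp5 0.449 ± 0.031. The log2 ratio was 0.71, 0.68 and 0.61 in mice 1, 2 and 3 (mean 0.67 ± 0.05, SD; exact two-sided sign-flip test, p = 0.25; adjusted p = 0.32), a 1.59-fold difference. Division by the windows without an exact copy elsewhere, chosen after seeing the data, gave 0.753 for Fabp4 and 0.695 for Fabp5 and lowered the log2 ratio to 0.11. Conversely, the canonical transcript of Fabp4 runs past the start and end that the deposited table gives for the gene. Within that extent it has 896 of its 1360 bases, the level of Fabp4 was 1.08 per base, and the log2 ratio to Fabp5 was 1.26. The direction was the same in all these settings, and its size was not settled. Fabp3, the form known from heart muscle, had 168, 150 and 144 normalized counts and was below Fabp4, with a log2 ratio of Fabp4 to Fabp3 of 1.93 ± 0.13 (SD, n = 3; by the exact two-sided sign-flip test, p = 0.25; adjusted p = 0.32). Over windows without a copy this ratio was 0.95, and under the other lengths and the correction for taken start positions it lay between 2.39 and 2.75.

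Cd36 and Fabp4 could not be ordered. Per base of canonical transcript their log2 ratio was 0.11 ± 0.10 (SD, n = 3), positive in mice 1 and 3 and negative, at -0.0053, in mouse 2 (exact two-sided sign-flip test, p = 0.5; adjusted p = 0.5). Within the extent of the deposited table the ratio was -0.49, and by coding sequence it was -0.36.

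Pparg (ENSMUSG00000000440, chromosome 6, 115337912 to 115467360, plus strand) had 983, 853 and 894 normalized counts in mice 1, 2 and 3, a mean of 910 ± 66.5 (SD, n = 3). Mouse 1 was the high library. Ppard, which encodes the related receptor PPAR delta, had 793, 768 and 955. Per base, the log2 ratio of Pparg to Ppard was 0.57, 0.41 and 0.16 (mean 0.38 ± 0.20, SD; exact two-sided sign-flip test, p = 0.25; adjusted p = 0.32), and it was -0.059 by the longest annotated transcript and 0.96 within the extent of the table. Ppara, the gene of a related receptor abundant in heart muscle, had 22, 11 and 35. Of the 12 nuclear receptors and coregulators listed, 8 had a mean of at least 200, with the corepressor gene Ncor1 (2971 ± 244.6, SD, n = 3) and the partner receptor gene Rxra (1831 ± 75.4) as the highest.

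**Figure D2:**
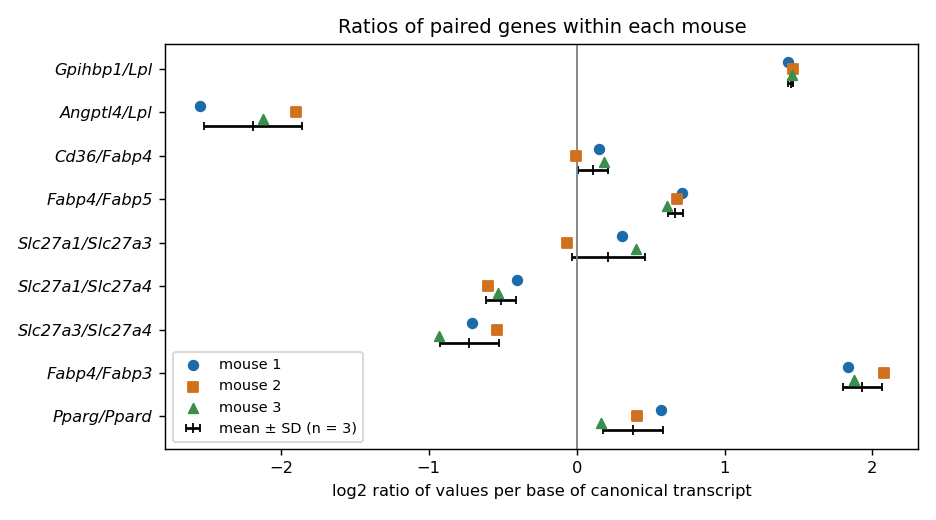
Log2 ratios of values per base of canonical transcript for the 9 gene pairs (x axis), one point for each mouse and the mean ± SD (n = 3) below the points. Gpihbp1/Lpl is nearly the same in each mouse, between 1.43 and 1.46, whereas Cd36/Fabp4 and Slc27a1/Slc27a3 lie on both sides of 0.

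Ordered by level per base of canonical transcript, the members were Gpihbp1, Cd36, Fabp4, Lpl, Fabp5, Pparg, Angptl4, Slc27a4, Slc27a1 and Slc27a3, a 28.9-fold range. Of the 9 neighbouring pairs in this order, 7 had a difference above the larger SD of the pair and kept their order in each of the 3 mice. The exceptions were Cd36 with Fabp4 and Slc27a1 with Slc27a3. The order of 4 of the 7 changed with the length. Fabp4 was below Lpl by all annotated exons (0.196 and 0.202) and by the longest transcript (0.229 and 0.573), and Fabp5 was above Lpl over windows without a copy (0.695 and 0.639). Fabp5 was below Pparg by all annotated exons, by the longest transcript and within the extent of the table, and in the last of these Angptl4 was below Slc27a4. The median of the members was 0.391 per base, against 0.176 for genes that reached 200 and had a length, and 6 of the 10 members were above the latter value. Those below it were Angptl4 and the 3 transport protein genes.

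**Figure D3:**
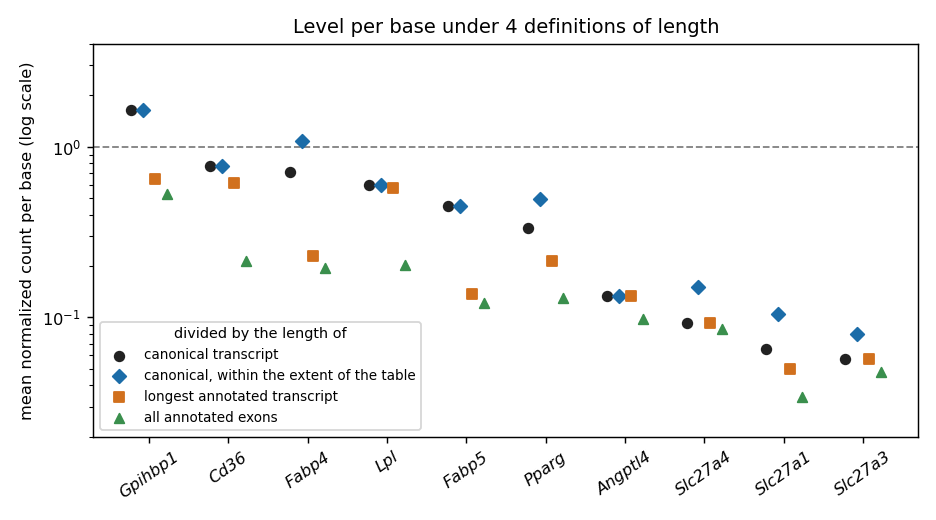
Mean normalized count per base (y axis, log scale) of each member when divided by the length of the canonical transcript, of its part within the extent of the deposited table, of the longest annotated transcript or of all annotated exons, with a dashed line at 1 per base. Gpihbp1 is at 1.64 or 0.531 and Fabp4 between 1.08 and 0.196 depending on the length, while the transport protein genes remain at or below 0.150.

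None of the 9 members with a mean of at least 200 had a CV over 20%, against 8.00% of genes at that level. Their spread was ordinary for the table, with a median CV of 7.10% over the 10 members and 7.37% over genes at that level. The count rested on a single library, because without mouse 3 the CV of Angptl4 was 25.5% and 1 member passed, against a background of 8.71%. Without mouse 1 the CV of Slc27a3 was 21.2%, but its mean was below 200.

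Members did not follow a common pattern over the mice. Lpl, Gpihbp1, Cd36, Slc27a3, Fabp4 and Fabp5 were lowest in mouse 3, as were 39.0% of genes that averaged 200 or more. Lpl, Gpihbp1 and Cd36 were highest in mouse 1 and lowest in mouse 3, a pattern found in 22.7%. Angptl4 and Slc27a4 were highest in mouse 2 and lowest in mouse 1, found in 15.6%. Centring on genes of like transcript length gave a CV of 4.94% in place of 9.06% for Fabp4 and of 2.93% in place of 6.30% for Gpihbp1. The CV of Angptl4 was then 18.7% and that of Lpl 7.15%, and 5 members were lowest in mouse 3.

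Around the members, 75 other genes of the pathway were looked up in 8 lists. Of these, 61 were listed, and 50 of the 61 had a mean of at least 200, a level that 53.2% of all listed genes reached. Of the 50, 5 had a CV over 20% (among them Lrp1, Hspg2, Sdc4 and Dgat2), near the 8.00% of genes at that level. Among 17 partners of lipolysis, 13 were listed. The highest by mean were Hspg2, a basement membrane proteoglycan gene, with 3837 ± 834.8 (SD, n = 3), Furin, a protease gene whose product is known to cleave lipoprotein lipase and ANGPTL4, with 1714 ± 70.7, and Sel1l, which helps lipoprotein lipase leave the endoplasmic reticulum, with 1429 ± 30.5. Lipg, the gene of endothelial lipase, had only 29, 29 and 15 normalized counts, and Lipc, that of hepatic lipase, had 20, 15 and 40. Angptl8, Apoc2, Apoc3 and Apoa5 were not listed.

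Of the 8 other binding protein genes only Dbi, which binds acyl-CoA, and Fabp3 were listed, and Fabp1, Fabp2, Fabp6, Fabp7, Fabp9 and Fabp12 were not. Of 6 acyl-CoA synthetase genes, whose products trap fatty acids in the cell, 5 were listed. Acsl5 was the highest with 1332, 1316 and 1286, followed by Acsl1 (745 ± 63.8, SD, n = 3) and Acsl4 (552 ± 48.6), while Acsbg1 was not listed. Per base of canonical transcript Acsl5 had 0.301, below Cd36 and Fabp4 and above each of the 3 transport protein genes. By all annotated exons it had 0.221, above Cd36 with 0.214 and Fabp4 with 0.196. By the longest transcript it had 0.295, above Fabp4 with 0.229 and below Cd36 with 0.617.

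All 12 genes in the list of endothelial regulators of fatty acid uptake had a mean of at least 200. Flt1, a receptor for VEGF-B, had 4919 ± 392.2 (SD, n = 3), Epas1, a hypoxia-inducible factor, had 3560.0 ± 97.2, and Aplnr, the apelin receptor, had 1954 ± 221.0. Meox2 and Tcf15, transcription factors that act as a pair in heart endothelium and are known to promote its fatty acid uptake, had 1484 ± 71.1 and 772 ± 60.4, or 0.627 and 0.775 per base. Of 10 genes for lipid droplets and triglycerides, 9 had a mean of at least 200. The enzymes that break triglycerides down in steps were the highest, with Mgll at 2905 ± 54.4, Lipe at 1627 ± 138.9 and Pnpla2 at 934 ± 91.9 (SD, n = 3).

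Several members are also made by other cells of the heart, and less RNA per cell cannot be told apart from fewer cells in such tissue libraries. Adipocytes express Fabp4, Cd36, Lpl and Pparg. Of 8 adipocyte markers Retn, Lep and Ucp1 were not listed, and Adipoq had 0, 5 and 5, Plin1 3, 4 and 11, Cidec 1, 3 and 16, and Cfd 1, 10 and 41 normalized counts. The markers summed to between 75 and 124 in a mouse, and Cidea, a lipid droplet gene known from brown fat, held 51 to 87 of them. Macrophages express Fabp4, Fabp5, Cd36, Lpl and Pparg. All 9 macrophage markers were listed, with sums between 785 and 1162, a highest gene Lyz2 (217 ± 26.6, SD, n = 3) and a median of 0.0287 per base, against 0.391 for the fatty acid uptake genes. The part of adipocytes and macrophages in the levels of these members was not tested.

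Cardiomyocyte transcripts were present at high levels, which bears on Lpl and Fabp3 in particular. All 10 cardiomyocyte markers were listed, their sums lay between 20679 and 24237, led by Ttn, and their median per base was 0.565, against 0.690 for the endothelial markers. At the level of Lpl (0.600 per base) the correction for start positions already taken was 1.54-fold, and neither median was so corrected. Their ratio is therefore not that of the RNA amounts. The sums were 20679, 21339 and 24237 in mice 1, 2 and 3. The long genes Ttn (7379, 7743 and 10190) and Ryr2 (3280, 3667 and 4486) were highest in mouse 3 and lowest in mouse 1. So was Tnnt2 (1309, 1382 and 1407), and Myh6 (3428, 3701 and 3643) was also lowest in mouse 1. The other 6 of the 10 markers (Tnni3, Actc1, Myl2, Myl3, Mb and Pln) were highest in mouse 1 and lowest in mouse 3, as Lpl was. This order was found in 22.7% of genes that averaged 200 or more. Canonical transcripts of Tnni3, Myl2, Myl3 and Mb are in the shortest eighth, where the median log2 ratio of mouse 3 to the other mice was -0.13. The part of cardiomyocyte RNA in the level of Lpl was not tested. Fibroblast markers had sums between 2837 and 3783 and a median of 0.0914 per base, and their highest gene was Dcn. Mural cell markers had sums between 1610 and 2274 and a median of 0.0471, with Rgs5 the highest. Each of the fibroblast and mural lists had all of its 8 genes in the table.

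**Figure D4:**
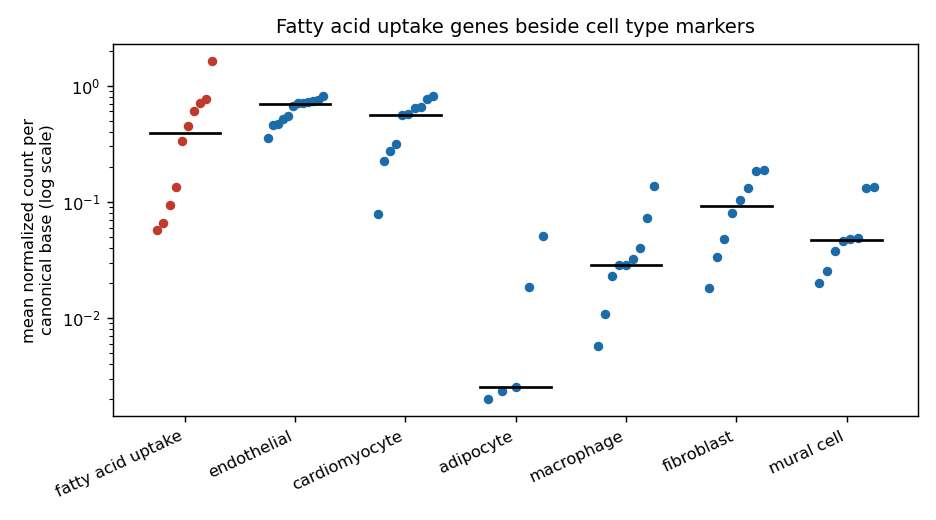
Mean normalized count per base of canonical transcript (y axis, log scale) for the 10 fatty acid uptake genes and for the listed markers of 6 cell types, one point for each gene and a bar at the median. The fatty acid uptake genes spread from 0.0567 to 1.64, the medians of the endothelial and cardiomyocyte markers are 0.690 and 0.565, and the 5 listed adipocyte markers lie at or below 0.0503.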

How the data were processed

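Per the labels and the methods, the authors trimmed reads with Trimmomatic 0.39, aligned them with STAR 2.7.11a to mm39, removed duplicates with Picard 3.1.1, discarded reads of ribosomal or mitochondrial origin and reads that mapped to several places, counted exonic reads on the correct strand with featureCounts 2.0.4, and normalized with DESeq2 1.36.0. The deposited values are treated as a score, since the authors divided counts by a size factor for each library and rounded to whole numbers, so no count model was fitted. The table gives no depth. It was estimated from whole numbers that rounding left empty or doubled (1 read is worth 0.977, 1.06 and 0.961 normalized counts), and the estimate was tested on simulated data.

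Lengths came from GENCODE vM39 (GRCm39), which held 17475 of 17583 identifiers (99.4%) and is newer than the annotation used by the authors. No exon of a member's canonical transcript overlapped an exon of another gene on its strand. Exons of the other annotated transcripts were not checked. Copies of 72-base windows were searched with BLAST 2.17.0, and coding sequences were aligned with Biopython 1.88. Other computations used Python 3.11.15, numpy 2.4.6, pandas 2.3.3 and matplotlib 3.10.9.

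Ratios of 9 gene pairs were computed mouse by mouse as log2 values, for which an exact two-sided sign-flip test was run with Benjamini-Hochberg adjustment. The 3 columns were matched to mice by sample title. The members, gene lists and pairs were chosen with earlier results of these data known. Named are the members, the pairs, Xist and Ddx3y, and the 3 highest and the unlisted genes of each pathway list. Named too are the 3 genes nearest to Cd36 in level per base, by their largest log2 difference in any mouse. The highest gene and the genes at 0 or not listed of each marker list are also named. Other genes (Lipg, Lipc, Ppara, Meox2, Plin1, Cidec, Cfd, Myh6, Tnnt2, Ryr2 and 6 further cardiomyocyte markers, the 4 further trafficking genes, the variable pathway genes and the pseudogene) were named after their values were seen. A pathway gene that the rule names is not reported here. Alternatives were other scalings, lengths, floors and pseudocounts, a correction for start positions already taken, and leaving out each mouse.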

Additional observations from a re-analysis of the deposited data

How the results depend on the processing

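Scaling by trimmed means or to equal totals, a median over mice and leaving out a mouse kept each member's level within its SD (60 of 60 alternatives). The median of the members stayed between 749 and 763.8 with a mouse left out, and 9 members had a mean of at least 200 each time. The number of members with a CV over 20% was between 0 and 1, the latter without mouse 3. Per base, the median of the members was 0.391 by canonical transcript, between 0.385 and 0.399 with a mouse left out, 0.126 by all annotated exons, 0.870 by coding sequence, 0.177 by the longest transcript, 0.474 within the extent of the table, 0.490 over windows without an exact copy, and 0.407 after correction for start positions already taken, which gave no value for Gpihbp1 and so is over the other 9 members. The longest transcript, the extent of the table and the windows without a copy were added after seeing the data.

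Of 107 alternative values of the 9 ratios, 101 had the same direction. Those that reversed followed from the length alone. The log2 ratio of Gpihbp1 to Lpl was -0.86 without division by length. That of Cd36 to Fabp4 was -0.36 by coding sequence and -0.49 within the extent of the table. That of Slc27a1 to Slc27a3 was -0.47 by all annotated exons and -0.18 by the longest transcript. That of Pparg to Ppard was -0.059 by the longest transcript. With a mouse left out the smallest p is 0.5. No paired analysis was possible because the libraries form a single group. The exact sign-flip test and the SDs rest on 3 mice, and for the members with a CV well above that of counting, depth is not the limit.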
